A study of Mus musculus with 5 samples.

Results

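Chemokines and their receptors were followed across 5 arrays of mouse cells, embryonic stem cells (ESCs) on 2 arrays and embryonic fibroblasts (MEFs) on 3. The 51 genes were taken by name: every gene with a probe set of its own whose platform symbol begins with Ccl, Cxcl, Cx3cl, Xcl, Ccr or Cxcr and ends in a number with at most 1 letter, together with Ppbp and Pf4, chemokines with older names. They made up 51 of the 19938 genes measured, and comprised 36 chemokines and 15 receptors. The atypical receptors, Cx3cr1 and Xcr1 carry other names and were kept in a separate list. The Ccl21 and Ccl27 gene copies share their probe sets with each other and belonged to no gene of the 51.

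Each of the 5 groups was 1 array of total RNA. The ESCs were either 2i or S ESCs. The MEFs were controls or 2i MEFs, the latter labelled 2n or 4n. Cells of every group came from F1 hybrids between the strains 129X1/SvJ and MSM/Ms. No transgene, deletion or age is named in the labels, and S, 2n and 4n are used as names only, while 2i is the usual name for medium with inhibitors of the kinases MEK and GSK3. Numbers that the titles add are not explained. The first is 36 in the title of S ESCs, 4 in that of control MEFs and 2 in that of 4n cells. The 2i ESCs share 15 with the 2n cells, so compared groups differ in this number too. The titles of the 2n and 4n cells add a further number, which differs between them.

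Chemokines are small secreted proteins that direct the movement of cells. Most fall into a CC family (Ccl genes) and a CXC family (Cxcl genes, Ppbp and Pf4), named after the spacing of their first cysteines, and they act through receptors coupled to G proteins. Fibroblasts are a known source of chemokines that attract monocytes and neutrophils, and of Cxcl12, which holds blood progenitors in their niche, whereas the receptors are found mainly on white blood cells.

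Values are the deposited intensities, in array units, and differences are log2 differences of (intensity + 1). A level was set against the floor of its array, the median over gene-named probe sets, which lay between 217.9 and 240.1. A gene entered a comparison when its brightest array in that comparison reached the floor. A level below the floor is partly background of unknown size, on which any fold against it depends. With 1 array per group no pair of arrays could be tested, and "higher" and "lower" then mean a difference of at least 2-fold. In these bulk samples, fewer cells of a type and less RNA per cell cannot be told apart. The labelled cell types matched their defining markers: on each ESC array 6 of 6 pluripotency markers were at or above the floor, against 0 of 6 on any MEF array, and 10 of 10 fibroblast markers reached it on each MEF array and 4 or 5 on the ESC arrays. Many deposited values were identical between MEF arrays. Of the 51 genes, 35 had the same value on 2 or more MEF arrays, and such equality is a property of the deposited table and was not read as a measured equality.

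Among the 51 genes, chemokine expression was concentrated in a few genes and in the MEFs. Of the 51 genes, 13 reached the floor on 1 or more arrays, all of them chemokines. The number at or above the floor was 1 on the 2i ESC array, 1 on the S ESC array, 9 on the 2n 2i MEF array, 13 on the 4n 2i MEF array and 8 on the control MEF array. These are 1.96% to 25.5% of the 51 genes, where 49.8% to 50.03% of all genes measured reached the floor. The 13 were Ccl2, Ccl3, Ccl7, Ccl9, Cxcl1, Cxcl5, Cxcl12, Cxcl14, Cxcl15, Cxcl16, Cx3cl1, Ppbp and Pf4. Of these, 6 reached the floor on every MEF array and on no ESC array, and 0 reached it on an ESC array without also reaching it on a MEF array. Among the 6, Ppbp reached it narrowly on the 4n array, with 238.9 against a floor of 232.6.

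**Figure D1:**
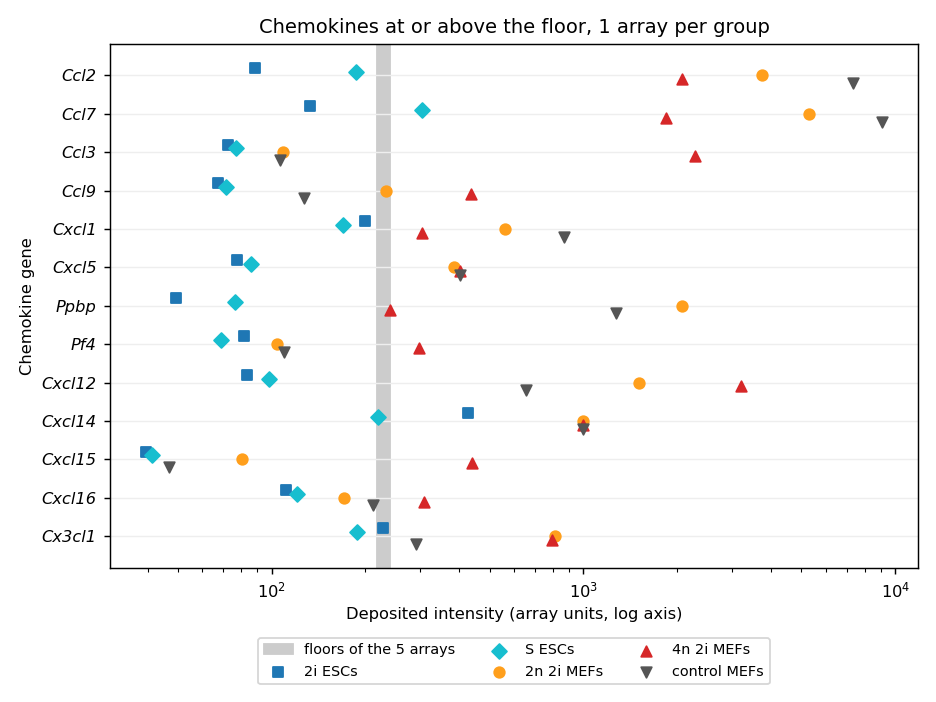
Deposited intensity (log axis) of the 13 chemokine genes that reached the floor on 1 or more arrays, with 1 point per array; the grey band spans the floors of the 5 arrays, 217.9 to 240.1. The ESC points lie in or left of the band except for Ccl7 on the S ESC array (303.7) and Cxcl14 on the 2i ESC array (426.7), and Ccl3 lies right of it on the 4n 2i MEF array alone (2287).

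No receptor reached the floor on any array. The 15 receptors lay between 29.2 and 206.1 intensity units. Cxcr4, the receptor of Cxcl12, had 144.5 on the 2i ESC array, 150.2 on the S ESC array, 87.6 on the 2n 2i MEF array, 123.8 on the 4n 2i MEF array and 95.8 on the control MEF array. Ccr7, which guides lymphocytes and dendritic cells to lymph nodes, had 206.1 in the 2i ESCs, 195.3 in the S ESCs and 99.1 to 106.9 in the MEFs. Ccr2, the receptor of Ccl2 and Ccl7, lay between 29.2 and 31.4 on all 5 arrays, and Cxcr2, the receptor of Cxcl1 and Cxcl5, between 37.0 and 41.5. The other 11, Ccr1, Ccr3, Ccr4, Ccr6, Ccr8, Ccr9, Ccr10, Cxcr1, Cxcr3, Cxcr5 and Cxcr6, were likewise below the floor on every array. Of 9 receptors with other names, 8 never reached the floor, among them Ackr3, which binds Cxcl12, Cx3cr1, which binds Cx3cl1, and Xcr1. The exception was Cmklr1, the receptor of the chemokine-like protein chemerin, with 829.4 and 1134 on the 2i and S ESC arrays, 507.9 and 483.7 on the 2n and 4n 2i MEF arrays and 838.3 on the control MEF array.

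A further 23 chemokines stayed below the floor on all 5 arrays, between 36.05 and 208.5 intensity units. They included the ligands of Cxcr3 that interferon induces (Cxcl9, Cxcl10 and Cxcl11), the neutrophil attractants Cxcl2 and Cxcl3, the eosinophil attractants Ccl11, Ccl24 and Ccl26, the B cell attractant Cxcl13, Ccl4, Ccl5, Ccl6, Ccl8, Ccl12, Ccl1, Ccl17, Ccl19, Ccl20, Ccl22, Ccl25, Ccl28, Cxcl17 and Xcl1. The highest value among them was that of Cxcl11 on the 2i ESC array (208.5), against 116.4 on the S ESC array and 63.2 to 64.4 on the MEF arrays.

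Between the cell types, chemokines that passed the test were all lower in ESCs. The comparison sets 2 ESC arrays against 3 MEF arrays, with limma across all genes past the floor, so its spread is that between conditions of a cell type and not between replicates of a condition, and separate cultures are not named in the labels. Of the 51 genes, 13 passed the floor, and 8 were called lower in ESCs (adjusted p under 0.05 and at least 2-fold) and 0 higher. Among all 11827 genes tested, 16.3% were called lower and 16.7% higher. Since 11 of the 13 passed the floor through MEF arrays alone, their count is weighted toward lower calls. Over all 51 genes with no floor the median difference was -0.15, against 0.06 over all 19938 genes.

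Ccl2 (Entrez Gene 20296), which attracts monocytes through Ccr2, had 88.5 and 185.8 intensity units on the 2i and S ESC arrays and 3732, 2065 and 7317 on the 2n, 4n and control MEF arrays. The ESC and MEF values did not overlap. On the log2 scale the levels were 7.01 ± 0.75 (SD, n = 2) in ESCs and 11.91 ± 0.91 (SD, n = 3) in MEFs, a difference of -4.89 (SE 0.65, adjusted p = 0.00419 in limma). Ccl7 (Entrez Gene 20306), another monocyte attractant that binds Ccr2, had 132.6 and 303.7 on the 2i and S ESC arrays and 5298, 1835 and 9047 on the 2n, 4n and control MEF arrays. Its difference was -4.46 (SE 0.80, adjusted p = 0.0100 in limma), again without overlap.

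Cxcl12 (Entrez Gene 20315), the stromal ligand of Cxcr4, had 83.3 and 97.9 on the 2i and S ESC arrays and 1509, 3208 and 652.1 on the 2n, 4n and control MEF arrays, a difference of -4.01 (SE 0.71, adjusted p = 0.00948 in limma). Ppbp (Entrez Gene 57349), whose product is stored in platelets and cut into a neutrophil attractant, had 49.2 and 76.4 on the ESC arrays and 2075, 238.9 and 1270 on the 2n, 4n and control MEF arrays, a difference of -3.78 (SE 1.01, adjusted p = 0.0318 in limma). The lowest MEF value of either gene was above both of its ESC values. Cxcl5, a neutrophil attractant that acts through Cxcr2, had 77.5 and 85.9 on the ESC arrays and 383.4, 402.4 and 402.4 on the 2n, 4n and control MEF arrays (difference -2.26, adjusted p = 0.000297 in limma). Its 4n and control values are identical as deposited, so this p holds little measured spread between MEF arrays.

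The other 3 calls were smaller. Cxcl14, a chemokine of epithelium and connective tissue, had 426.7 and 219.2 on the 2i and S ESC arrays and 998.6 on each MEF array (difference -1.70, adjusted p = 0.00953 in limma), so its p holds no measured spread between MEF arrays. Ccl9, a ligand of Ccr1, had 67.2 and 71.6 in the 2i and S ESCs and 127.0 to 437.1 in the MEFs, a difference of -1.74 (adjusted p = 0.0489 in limma). Cxcl1, a neutrophil attractant, had 198.7 and 169.7 in the 2i and S ESCs and 303.0 to 864.2 in the MEFs, a difference of -1.52 (adjusted p = 0.0480 in limma). The values of neither gene overlapped between the cell types. The remaining 5 genes past the floor were not called. Cxcl16 had an adjusted p of 0.0411 in limma at a difference of -0.94, below 2-fold. Cx3cl1 (-1.46, adjusted p = 0.0713), Pf4 (-0.99, adjusted p = 0.168), Cxcl15 (-1.53, adjusted p = 0.253) and Ccl3 (-1.99, adjusted p = 0.317) missed the p threshold in limma. The 2i and S ESC arrays had 228.4 and 188.3 for Cx3cl1, 111.5 and 120.7 for Cxcl16, 81.8 and 68.8 for Pf4 and 39.6 and 41.4 for Cxcl15, all below the floor.

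These calls rested on both ESC arrays being in the fit. Without the 2i ESC array 2 of the 51 genes were called lower, Cxcl5 and Cxcl14, and without the S ESC array 3, those and Ccl2. In these fits the lone ESC array is assumed to vary like the MEF arrays, and Cxcl5 and Cxcl14 are the 2 genes of the 13 with identical values on MEF arrays. Ppbp lost its call without the 2n or the control MEF array, Cxcl1 without either of these, and Ccl9 without the 2n array. Cx3cl1 gained a call without the control MEF array and Cxcl16 without the 2n array. With no floor, Ccl9 and Cxcl1 were not called.

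Among the 51 genes the ESC arrays carried little chemokine signal, and 1 gene, the monocyte attractant Ccl7, was beyond 2-fold between them. Past the floor were 2 of the 51 genes. Ccl7 was 2.28-fold lower on the 2i ESC array (132.6 against 303.7, log2 difference -1.19), a difference not called at 3-fold or under a floor set to the 75th percentile, and Cxcl14 was within 2-fold (426.7 against 219.2, 0.96). Thus 1 gene was lower and 0 higher, where 2.54% of 10493 genes were lower and 2.78% higher. Ccl2 was also dimmer on the 2i ESC array (88.5 against 185.8, -1.06), with both values below the floor. Among the 38 genes below the floor on all arrays the differences ran from -0.19 to 0.84, the highest being that of Cxcl11. The excess of the S ESC array over the 2i ESC array was 1.89% of the control MEF intensity for Ccl7 and 1.33% for Ccl2. For the 10 fibroblast markers it ran from 0.327% (Twist1) to 3.88% (Thy1), and their summed intensity was 3401 on the S and 2444 on the 2i ESC array. Of these markers, Col3a1, Lum, Pdgfra, Twist1 and Postn were below the floor on both ESC arrays, so their excess is partly background. The part of these markers in the Ccl7 difference was not tested.

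Among MEFs, the 2n 2i array differed from the control array in 2 chemokines and the 4n 2i array in 10. On the 2n array 2 of the 51 genes were higher, Cx3cl1 and Cxcl12, and 0 lower, among 9 past the floor. Over all 10131 genes 1.48% were higher and 0.434% lower. On the 4n array 6 were higher (Ccl3, Ccl9, Cx3cl1, Cxcl12, Cxcl15 and Pf4) and 4 lower (Ccl2, Ccl7, Cxcl1 and Ppbp) among 13 past the floor, where 5.26% of 10304 genes were higher and 3.44% lower. Of the 6 higher genes, 4 (Ccl3, Ccl9, Cxcl15 and Pf4) were below the floor on the control array and passed only through the 4n array, so that their direction was fixed by the floor. Set against the 2n array, the 4n array was higher in 4 (Ccl3, Cxcl12, Cxcl15 and Pf4) and lower in 2 (Ccl7 and Ppbp), with 3.34% of 10280 genes higher and 2.36% lower. Ccl3, Cxcl15 and Pf4 again passed only through the 4n array. Over all 51 genes with no floor the median difference was 0.00 in each MEF comparison, as it was over all genes, and 21 to 24 of the 38 genes below the floor had a difference of exactly 0. Genes with identical values on a pair of arrays cannot be called and lower the shares over all genes. How many of the genes past the floor they make up was not computed. The comparisons with the control MEFs share the control array, and each has 1 array on either side.

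**Figure D2:**
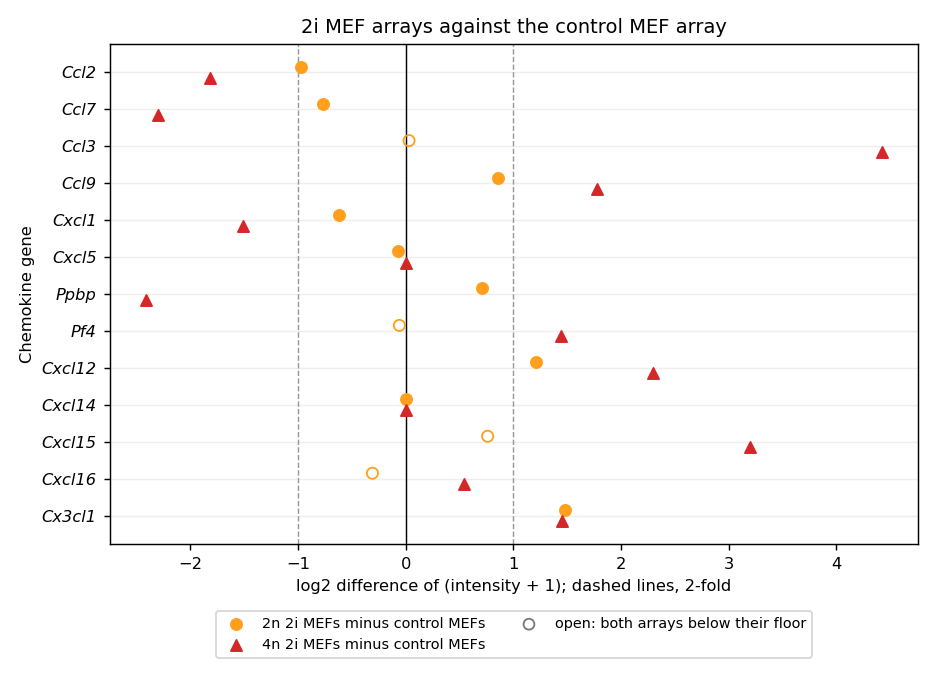
Log2 difference of (intensity + 1) between the 2n (circles) or 4n (triangles) 2i MEF array and the control MEF array, for the 13 chemokine genes that reached the floor on 1 or more arrays; dashed lines mark 2-fold, and open points have both arrays below their floor. The 4n points run from -2.41 (Ppbp) to 4.42 (Ccl3), and the 2n points from -0.97 (Ccl2) to 1.48 (Cx3cl1).

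The monocyte attractants Ccl2 and Ccl7 were brightest on the control array and dimmest on the 4n array. On the 4n array Ccl7 was 4.93-fold lower than on the control array (1835 against 9047, log2 difference -2.30) and Ccl2 3.54-fold lower (2065 against 7317, -1.82). On the 2n array both lay between the others and within 2-fold of the control, at -0.77 for Ccl7 (5298) and -0.97 for Ccl2 (3732). Against the 2n array, the 4n array had -1.53 for Ccl7 and -0.85 for Ccl2. The related attractants Ccl8, Ccl11 and Ccl12 were below the floor on every array, with differences between the 4n and control arrays of -0.12, 0.00 and 0.25.

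Ccl3 and Ccl9, CC chemokines that macrophages make, went the other way. Ccl3 (Entrez Gene 20302), a ligand of Ccr1, had 2287 on the 4n array, 108.5 on the 2n array and 106.1 in the control MEFs, with 72.4 and 76.7 on the 2i and S ESC arrays. Only the 4n value was above the floor, and it was 21.4-fold the control value (log2 difference 4.42). Ccl9 had 437.1 on the 4n array, 231.9 on the 2n array and 127.0 in the control MEFs, with differences from the control of 1.78 on the 4n and 0.86 on the 2n array. Ccl6, a relative of Ccl9, was below the floor throughout, at 162.7 on the 4n array and 79.1 on each other MEF array (1.03). Ccl4, a relative of Ccl3, had 119.2 on the 4n, 74.7 on the 2n and 84.6 on the control array (0.49 for 4n against control), and Ccl5 was within 0.02 of the control on both 2i MEF arrays.

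The CXC chemokines that act on neutrophils, and their relatives, lay on both sides of the control. Cxcl1 (Entrez Gene 14825) had 560.5 on the 2n array, 303.0 on the 4n array and 864.2 in the control MEFs, differences from the control of -0.62 and -1.51. Ppbp was brightest on the 2n array (2075), intermediate on the control array (1270) and lowest on the 4n array (238.9). The 4n value was 5.30-fold below the control (-2.41) and 8.65-fold below the 2n value (-3.11), while the 2n array was 1.63-fold above the control (0.71). It lay just above the floor of the 4n array (232.6), so both folds from it depend in part on background. Cxcl5 had 383.4, 402.4 and 402.4 on the 2n, 4n and control arrays, the last 2 being identical deposited values. Cxcl15, known from lung epithelium, had 440.2 on the 4n array, 80.3 on the 2n array and 47.0 in the control MEFs (3.20 for 4n against control), and the 4n value alone reached the floor. Cxcl2 and Cxcl3, the closest relatives of Cxcl1, were below the floor with 62.6 to 68.5 and 77.2 units on the MEF arrays. How far probe sets of these similar genes pick up each other's transcripts was not tested.

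The promoters of Cxcl1, Cxcl2 and Cxcl3 are shown because they carry one and the same stretch while only Cxcl1 was detected; they were chosen after the values were seen. Sequences are from RefSeq's mouse assembly GRCm38.p6, plus strand, 5′ to 3′, and the capitals mark the match to the kappaB motif, the site of NF-kB factors, with 25 bases on each side. The motif was sought on both strands, and the 11 capitals, the same in all 3, are a pair of overlapping matches. They begin 71, 97 and 73 bases before the annotated start.
Cxcl1 (chr5:90891149-90891209): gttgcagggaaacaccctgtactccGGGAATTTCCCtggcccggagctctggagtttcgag
Cxcl2 (chr5:90903777-90903837): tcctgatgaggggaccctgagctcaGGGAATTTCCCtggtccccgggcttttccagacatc
Cxcl3 (chr5:90786003-90786063): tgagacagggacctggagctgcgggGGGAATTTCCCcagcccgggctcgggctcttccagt

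Promoters of 300 bases, from 250 before to 50 after the annotated start, were given for 37 of the 51 genes, 39 promoters in all. The kappaB motif stood on either strand of 8 of the 39 (20.5%), against 4.51% of all 32851 promoters of this length. The 8 were promoters of Cxcl1, Cxcl2, Cxcl3, Cxcl10, Ccl9, Ccl20, Ccr3 and Ccr6, of which Cxcl1 and Ccl9 reached the floor on an array. Genes that reached the floor held 9 of the 39 promoters, and 2 of these 9 had the motif. No promoter was given for Ccl2, Ccl7, Cxcl5 and Cxcl16, which also reached the floor, so theirs were not searched. The interferon-stimulated response element, here GAAA and GAAA with any 2 bases between them on either strand, stood in 3 of 39 (7.69%, against 3.44% of all), those of Ccl19, Cxcl10 and Cxcl14. The AP-1 motif TGANTCA, which reads the same on both strands, stood in 7 of 39 (17.9%, against 7.81% of all). The motifs were not counted as exclusive of each other. A match is a match of letters and not a measured binding site.

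Ppbp, Pf4 and Cxcl15 lie side by side or nearly so and had opposed differences on the 4n array. The 250 bases before each annotated start, plus strand of GRCm38.p6, are shown to set them side by side, and they too were chosen after the values were seen. Capitals mark the AP-1 match of Ppbp, while Pf4 and Cxcl15 hold none of the 3 motifs in their promoters.
Ppbp (chr5:90768268-90768517): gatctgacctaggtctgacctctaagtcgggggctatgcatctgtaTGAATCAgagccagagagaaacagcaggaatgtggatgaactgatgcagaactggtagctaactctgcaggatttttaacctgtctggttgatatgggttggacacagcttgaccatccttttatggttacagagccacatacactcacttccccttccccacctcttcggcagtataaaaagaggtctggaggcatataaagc
Pf4 (chr5:90772185-90772434): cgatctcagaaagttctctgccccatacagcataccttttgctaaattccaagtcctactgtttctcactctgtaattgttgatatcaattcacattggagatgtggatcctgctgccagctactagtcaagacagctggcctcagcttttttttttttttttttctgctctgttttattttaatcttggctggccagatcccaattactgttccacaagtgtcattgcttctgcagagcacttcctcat
Cxcl15 (chr5:90794284-90794533): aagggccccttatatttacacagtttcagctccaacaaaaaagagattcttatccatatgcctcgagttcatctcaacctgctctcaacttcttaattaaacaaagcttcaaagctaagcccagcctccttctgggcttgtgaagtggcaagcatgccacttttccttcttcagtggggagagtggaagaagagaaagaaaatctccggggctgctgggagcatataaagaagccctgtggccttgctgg

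Pf4 (Entrez Gene 56744), which encodes platelet factor 4, a chemokine of platelet granules that macrophages also make, had 297.7 on the 4n array, 104.4 on the 2n array and 109.2 in the control MEFs. Only the 4n value reached the floor, 2.71-fold above the control (1.44). Ppbp and Pf4 are both platelet genes and had opposite signs on the 4n array. The platelet markers Itga2b, Gp5 and Gp9 were below the floor on every array, with 171.9, 125.2 and 103.6 units on the 4n array. The control array had the same deposited values, which were not read as a measured equality. The platelet marker Itgb3, an integrin gene that other cells also express, was above the floor on every array. It had 736.9 on the 2n, 438.5 on the 4n and 714.4 on the control array. The part of platelet RNA in the Ppbp and Pf4 differences was not tested.

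The stromal chemokine Cxcl12 was graded across the MEF arrays, with 652.1 on the control, 1509 on the 2n and 3208 on the 4n array. It was 2.31-fold higher on the 2n array (log2 difference 1.21) and 4.91-fold higher on the 4n array (2.30) than on the control, and 2.13-fold higher on the 4n than on the 2n array (1.09). Cx3cl1 (Entrez Gene 20312), a chemokine tethered to the cell surface, had 810.6 on the 2n and 791.8 on the 4n array against 289.9 on the control array, differences of 1.48 and 1.45. Its 2i MEF values were thus alike and both well above the control value. These 2 genes were the ones beyond 2-fold in the same direction on both 2i MEF arrays. Cxcl16, which is also tethered to the surface and binds Cxcr6, had 308.4 on the 4n, 170.2 on the 2n and 211.2 on the control array and stayed within 2-fold (0.54 for 4n against control, 0.85 for 4n against 2n). Cxcl14 had the identical value of 998.6 on all 3 MEF arrays.

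By RefSeq gene order, 3 runs of neighbours hold 18 of the 51 genes with 0 other protein-coding genes between them. In the run of Ccl2, Ccl7, Ccl11, Ccl12, Ccl8 and Ccl1 on chromosome 11, the first pair carried all the signal above the floor, and both were lower on the 4n array. In the run of Ccl5, Ccl9, Ccl6, Ccl3 and Ccl4 on the same chromosome, Ccl9 and Ccl3 were higher on the 4n array, through which alone they passed the floor in the comparison with the control. In the run of Cxcl5, Ppbp, Pf4, Cxcl3, Cxcl15, Cxcl1 and Cxcl2 on chromosome 5, Pf4 and Cxcl15 likewise passed through the 4n array alone. In this run Cxcl5 had a difference of 0.00 between the 4n and control arrays, Ppbp -2.41, Pf4 1.44, Cxcl15 3.20 and Cxcl1 -1.51.

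**Figure D3:**
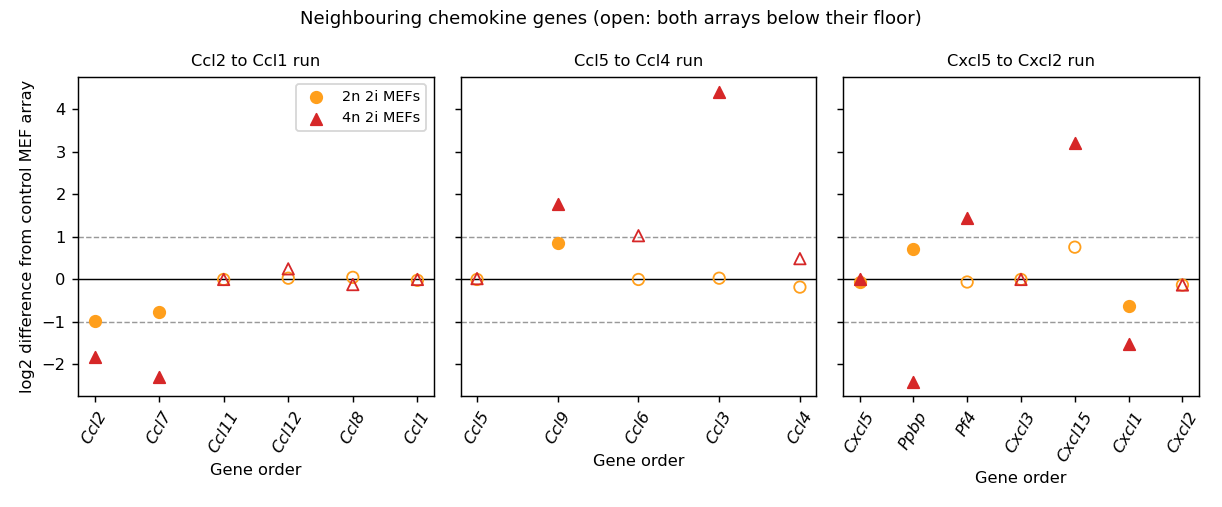
Log2 difference from the control MEF array for 3 runs of neighbouring chemokine genes in chromosomal order (2n 2i MEFs, circles; 4n 2i MEFs, triangles; open points, both arrays below their floor). In the right panel the 4n points of neighbouring genes lie on both sides of 0, from -2.41 for Ppbp to 3.20 for Cxcl15.

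Markers of other cell types moved with some of these genes. Of 18 macrophage and monocyte markers, 15 reached the floor on the 4n array and 3 on each other MEF array, and their summed intensity was 29200 on the 4n array, 2608 on the 2n array and 3244 in the control MEFs. All 18 were brighter on the 4n than on the control array, by 0.24 to 4.47. C1qb, a complement gene of macrophages, had 3820 on the 4n array against 170.9 on the control array, and Csf1r, the receptor that macrophages need, 481.2 against 142.7. Below the floor on every array were Ptprc, the marker of all white blood cells, Itgam and Cd14, with 187.6, 83.4 and 138.7 on the 4n array. Ccl3, Ccl9, Pf4, Cxcl12, Cx3cl1 and Cxcl15 were higher on the 4n array, and Ccl2, Ccl7, Cxcl1 and Ppbp were lower. The part of macrophage RNA in these differences was not tested. Ccl9 was also 1.82-fold above the control on the 2n array, which is within 2-fold. None of 7 neutrophil markers, 8 T and NK cell markers, 3 B cell markers and 4 dendritic cell markers reached the floor on any MEF array. Of 4 epithelial markers 1 did, Krt14, with 142.1, 274.6 and 583.8 on the control, 2n and 4n arrays. Of 7 endothelial markers 2 did, Emcn on the 2n array (58.9, 362.1 and 178.6 in the same order) and Kdr on the control array (235.9, 164.0 and 146.7).

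Of 6 mesothelial markers, 5 had the order of Cxcl12, dimmest on the control and brightest on the 4n array, and Krt19 had the reverse order, with 620.5, 588.4 and 491.0 on the control, 2n and 4n arrays. Of the 6, 2 reached the floor on the control array and 6 on each 2i MEF array, with summed intensities of 1596 on the control, 3876 on the 2n and 6543 on the 4n array. Upk3b, a surface gene of mesothelium, had 160.0, 1195 and 2387 on the control, 2n and 4n arrays. Fibroblast markers summed to 55690, 60790 and 74490 on the same arrays, with 2 of 10 at least 2-fold higher on the 4n than on the control array, Lum (2.92) and Col3a1 (1.40), and the other 8 between -0.11 and 0.58. The order of Cxcl12 was also that of the fibroblast markers Col1a1, Col1a2, Col3a1, Lum, Pdgfra and Postn, and of the epithelial marker Krt14. Dcn, Pdgfrb, Thy1 and Twist1 did not have it. The share of all genes with the order of Cxcl12 was not computed. The part of these cell types in the Cxcl12, Cx3cl1 and Cxcl15 differences was not tested.

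**Figure D4:**
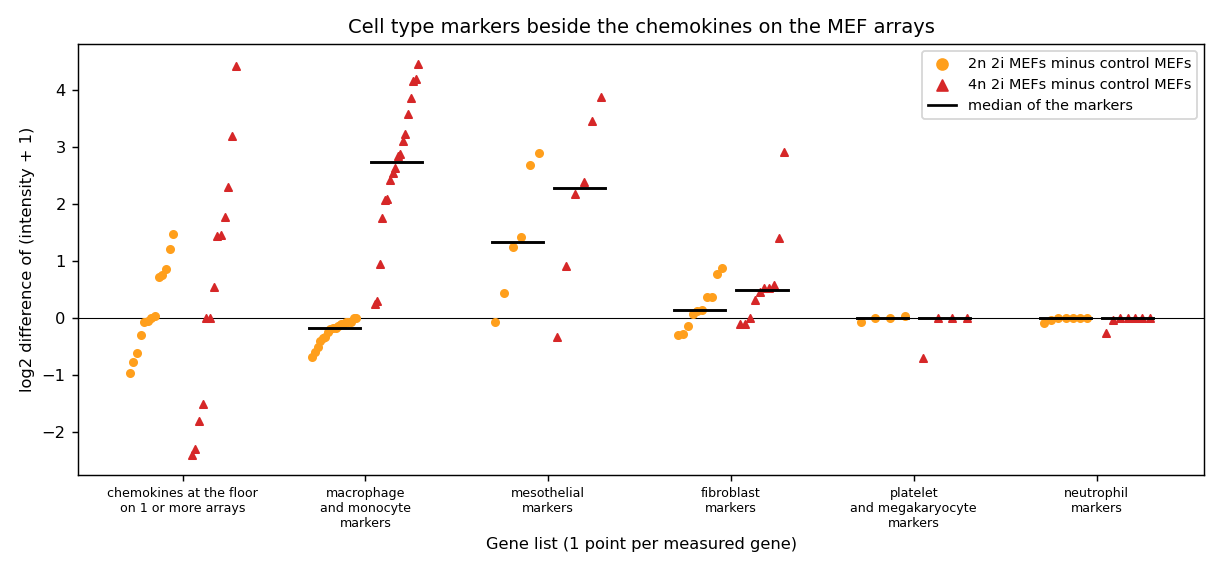
Log2 difference of (intensity + 1) from the control MEF array for the 13 chemokine genes and for marker lists, 1 point per measured gene (2n 2i MEFs, circles; 4n 2i MEFs, triangles); black bars are medians of the marker lists. The macrophage markers lie above 0 on the 4n array, from 0.24 to 4.47, whereas the chemokines lie on both sides of 0.

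Genes that act with chemokines were mostly called lower in ESCs or not called. Of 96 listed genes of receptor signalling, chemokine processing and chemokine induction, 89 were measured and 61 were tested between the cell types. Of these, 28 were lower in ESCs and 2 higher by the limma calls, where 16.3% of all genes tested were lower and 16.7% higher. Genes that passed the floor through MEF arrays alone, Tlr4 among them, are weighted toward lower calls. Those that passed through ESC arrays alone, such as Dpp4, are weighted toward higher ones. Proteases and matrix proteoglycans that cut or hold chemokines had 8 of 11 lower, among them the syndecan genes Sdc2 (log2 difference -2.66, adjusted p = 0.00271 in limma) and Sdc3 (-2.36, adjusted p = 0.00274 in limma), and 1 higher, Dpp4 (2.37, adjusted p = 0.0135 in limma), a peptidase that inactivates Cxcl12. Receptors of inducing cytokines had 8 of 11 lower, among them the interferon gamma receptor chain Ifngr2 (-3.97, adjusted p = 0.000978 in limma), the TNF receptor Tnfrsf1a (-3.36, adjusted p = 0.000593 in limma), and Tlr4, a receptor of bacterial lipopolysaccharide (-2.67, adjusted p = 0.00130 in limma). NF-kB and interferon regulators had 7 of 18 lower and 1 higher, the cytokine inhibitor Socs3 (1.35, adjusted p = 0.00664 in limma). Receptor signalling genes had 3 of 14 lower, chemokine-like ligands 1 of 3, and inducing cytokines 1 of 3, namely Csf1, the growth factor of macrophages (-4.35, adjusted p = 0.00249 in limma).

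On the ESC arrays 50 of these genes passed the floor, with 2 higher on the 2i array (the GTPase gene Rac2 at 1.59 and the syndecan gene Sdc4 at 1.22) and 2 lower (the protease gene Mmp2 at -1.15 and Dpp4 at -1.06), where 2.78% of all genes were higher and 2.54% lower. Of 56 past the floor, 0 were beyond 2-fold between 2n and control MEFs, where 1.48% of all genes were higher and 0.434% lower. Between the 4n and control arrays 3 of 58 were higher, the alarmin gene Il33 (2.97), Rac2 (1.69) and the arrestin gene Arrb2 (1.63), and 4 were lower, the receptor kinase gene Grk5 (-1.36), the interleukin 17 receptor chain Il17ra (-1.33), Csf1 (-1.26) and Nfkbiz (-1.16), a co-regulator of NF-kB. These counts stand beside 5.26% of all genes higher and 3.44% lower. Il33 and Rac2 were below the floor on the control array and passed only through the 4n array, so that their direction was fixed by the floor. All 4 lower genes were brightest on the control and dimmest on the 4n array, as were Ccl2, Ccl7 and Cxcl1, while Ppbp was brightest on the 2n array. Part of this order was set by the choice of genes called lower on the 4n array. Its share over all genes was not computed. The inducers Tnf, Il1a, Il1b, Il6, Il17a, Ifng and Ifnb1 were below the floor on every array.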

How the data were processed

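Total RNA was purified with a column kit, fragmented, labelled with biotin and hybridised to 1-colour arrays, as the protocols in the labels state. The deposited table holds linear intensity values for 28853 probe sets, with a column for each array; its background correction, summarisation and normalization are not given in the sources used here. Arrays have no sequencing depth, and their number limits the precision. Of the probe sets, 21789 name 1 gene, 1621 several and 5443 none; 21698 of the first were matched through Entrez Gene to RefSeq (GRCm38.p6), used for names, gene order and promoters. The probe set with the highest mean stood for a gene (Ccl19 and Ccl25 had several).

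Intensities were analysed as log2(deposited intensity + 1). The cell types were compared with limma 3.58.1 in R 4.3.3 (lmFit, eBayes, 3 residual degrees of freedom, Benjamini-Hochberg over all genes past the floor), a step tested on simulated data; pairs of arrays by a 2-fold threshold, without a test. The members and lists were chosen with earlier results of these data known, and values on all arrays were given for each member that reached the floor. Other pathway genes were named, up to 4 per comparison, by the size of their difference; further ones, all genes past the 2-fold threshold among them, were chosen after their values were seen. Alternatives were quantile normalization, leaving the floor out, raising it to the 75th percentile, averaging a gene's probe sets, a pseudocount of 16, a 3-fold threshold, each array left out, an intensity trend with a robust prior, and leaving out genes with identical MEF values. Python 3.11.15, numpy 2.4.6, pandas 2.3.3 and matplotlib 3.10.9 were also used.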

Additional observations from a re-analysis of the deposited data

Results flagged for a closer look

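The differences of Ppbp and of Pf4 changed sign between the 2n and 4n 2i MEF arrays, each set against the same control MEF array. On the 2n array both genes were within 2-fold of the control. The log2 difference of Ppbp was 0.71 on the 2n array and -2.41 on the 4n array. That of Pf4 was -0.06 on the 2n array, where both values lay below the floor, and 1.44 on the 4n array. The difference between the 2n and 4n effects was not tested, since each group had 1 array.

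Outside the 51 genes, the probe sets shared by the Ccl27 gene copies carried signal above the floor. It was brighter on the 4n 2i MEF array than on the control MEF array, though within 2-fold. The brighter 2i MEF array was 1.28-fold, 1.28-fold and 1.33-fold the control array in the 3 such probe sets. The first pair had 539.6 and 539.2 units on the 4n array against 421.2 and 420.9 on the control array, and the third 957.2 against 717.7. On the 2n 2i MEF array all 3 were dimmer than on the control array, with 347.1, 347.0 and 558.2 units. On the 2i and S ESC arrays the first pair each had 496.6 and 477.5 units, and the third 783.4 and 753.7, all above the floor. The probe sets of the Ccl21 copies did not reach the floor on any array.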

How the results depend on the processing

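The number of the 51 genes called lower in ESCs was 8, 5 with the floor at the 75th percentile and 2 to 8 when 1 array was left out, the lowest without the 2i ESC array (2) and the next without the S ESC array (3); 7 other alternatives gave 6 to 10, and 0 of the genes were called under every one (Cxcl5 and Cxcl14 are dropped where genes with identical MEF values are left out). The number called higher in ESCs was 0, and 1 without a floor (Cxcl11). For the 2i against the S ESC array, the 1 lower gene became 2 without a floor, 0 with the floor at the 75th percentile and 0 at 3-fold. The 2 genes higher on the 2n than on the control MEF array became 1 with the higher floor and 0 at 3-fold. For 4n against control the 6 higher genes became 2 with the higher floor. For 4n against 2n the 4 higher genes became 2 with the higher floor and 2 at 3-fold, and the 2 lower became 1 at 3-fold. A higher floor tests fewer genes and a 3-fold threshold is stricter by construction; the cause of the other shifts was not tested. Of 358 recomputed differences of single chemokines, 324 kept their side of the threshold, 30 lost the call, 4 gained it and 0 of the called ones reversed. Some of the 324 could not change. Averaging probe sets left these genes as they were, since each has a single probe set, and leaving the floor out alters no difference between a pair of arrays. Genes that a setting dropped were not recomputed, so calls lost in that way are not among the 30. Ccl9 and Cxcl1, the calls nearest the p threshold, lost the call between the cell types without a floor. Intensities below the floor, which include all receptors, limit what can be said of those genes. No paired analysis was possible because each group had 1 array.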
